A study of Mus musculus and Rattus norvegicus with 14 samples.

Results

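The study names its pair of structurally similar compounds by codes, LQ-40 and SQ-3. Their libraries were read here as 1 treated group, 3 labelled LQ-40 and 3 labelled SQ-3, and compared with the 3 libraries labelled Model. Membership followed the sample titles and used no measured value. The 6 treated libraries are 6 of 12 mouse heart libraries and of 14 libraries in the series, and the 2 compounds are the only agents named for the hearts. The study's stated question was how the compounds act on fibrosis of the heart muscle, in groups of 3 with Sham as the further control. The labels give whole heart as the tissue and the group name as the treatment. They give no model procedure, dose, route, treatment time, strain, sex, age or time of collection, and do not state whether the treated animals went through the model procedure. Nor is it stated whether replicates are different animals, and p-values therefore measure the spread between these libraries, which may be technical.

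In a scarred heart, fibroblasts lay down collagen and other matrix while heart muscle cells return to fetal gene programs and lose transcripts of energy metabolism. Heart muscle also carries a circadian clock, in which BMAL1 (gene Arntl) and CLOCK switch on their own repressors and a set of output genes that include the transcription factors Dbp, Tef and Hlf. Cells that make much secreted protein raise the chaperones of the endoplasmic reticulum through the factors ATF6 and XBP1, and stretched or stimulated heart muscle raises immediate early genes such as the Nr4a receptors.

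The mouse libraries held 13085370 to 16698987 reads recovered from the deposited values. Levels are scaled FPKM, that is, reads per kilobase of gene and per unit of library size, divided by a further factor for each library. Differences are in log2(scaled FPKM + 1), a measure that makes changes of low genes look smaller, and a gene is called at an adjusted p under 0.05. Heart muscle markers were high in every library, with Myh6, the main motor protein of mouse heart muscle, at 1205 or more. On the first principal component, which held 53.4% of the variance, Sham lay at -52.5 to -43.7 and Model at 26.3 to 36.2. LQ-40 spread widely, with library 1 at -20.6, library 2 at 16.0 and library 3 at 34.3, while SQ-3 lay at 0.7, 17.7 and 0.2. Counts that changed without LQ-40 library 1 or 3 are given beside the lists below. The mitochondrial share of reads was 16.5% ± 3.7 (SD, n = 6) in treated and 13.4% ± 2.4 (SD, n = 3) in Model libraries, a difference of 3.04 points with an exact two-sided permutation p of 0.155. Of the 84 arrangements of 6 against 3 libraries, the smallest one-sided p possible is 0.0119.

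In treated hearts the clock output genes Dbp, Tef and Hlf rose and the clock activators Arntl, Npas2 and Clock fell, as did 12 genes of endoplasmic reticulum folding and 8 immediate early genes. limma called 154 of 13000 genes: 38 were higher in treated than in Model hearts (0.292% of genes tested) and 116 were lower (0.892%). By at least 2-fold on the scale of scaled FPKM + 1, 19 rose and 32 fell. The smallest called difference was 0.34 on the log2 scale. For 152 of the 154 genes all 6 treated libraries lay beyond all 3 Model libraries. The exceptions were Per2, a clock repressor, and Gm12250, an interferon-inducible predicted gene named here because it is an exception. Over all genes, 445 (3.42%) had the 6 treated libraries above the 3 Model libraries and 836 (6.43%) had them below. The median difference of all genes was -0.000, and 2111 of 13000 genes (16.2%) had an unadjusted p under 0.05.

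Pooling lowered the standard error. The median standard error was 0.132 for both compounds against Model and 0.152 for either compound alone, a ratio of 0.866 that the group sizes set. LQ-40 alone gave 87 called genes (0.669%), 24 higher and 63 lower, and SQ-3 alone gave 45 (0.346%), 10 higher and 35 lower. These comparisons share the 3 Model libraries with the joint one. The joint count was 136 without LQ-40 library 1 and 320 without LQ-40 library 3. It fell to 39 without Model library 3, 68 without Model library 1, 84 without Model library 2, 98 without LQ-40 library 2, 76 without SQ-3 library 1 and 69 without SQ-3 library 3. Among the 15 largest rises (protein-coding and named, mean 2 or more, treated and Model libraries not overlapping), 7 genes were called in every alternative in which they were tested (Dbp, Ciart, Hlf, Tef, Per3, Nr1d2 and Pik3ip1), and among the 15 largest such falls 11 were.

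**Figure D1:**
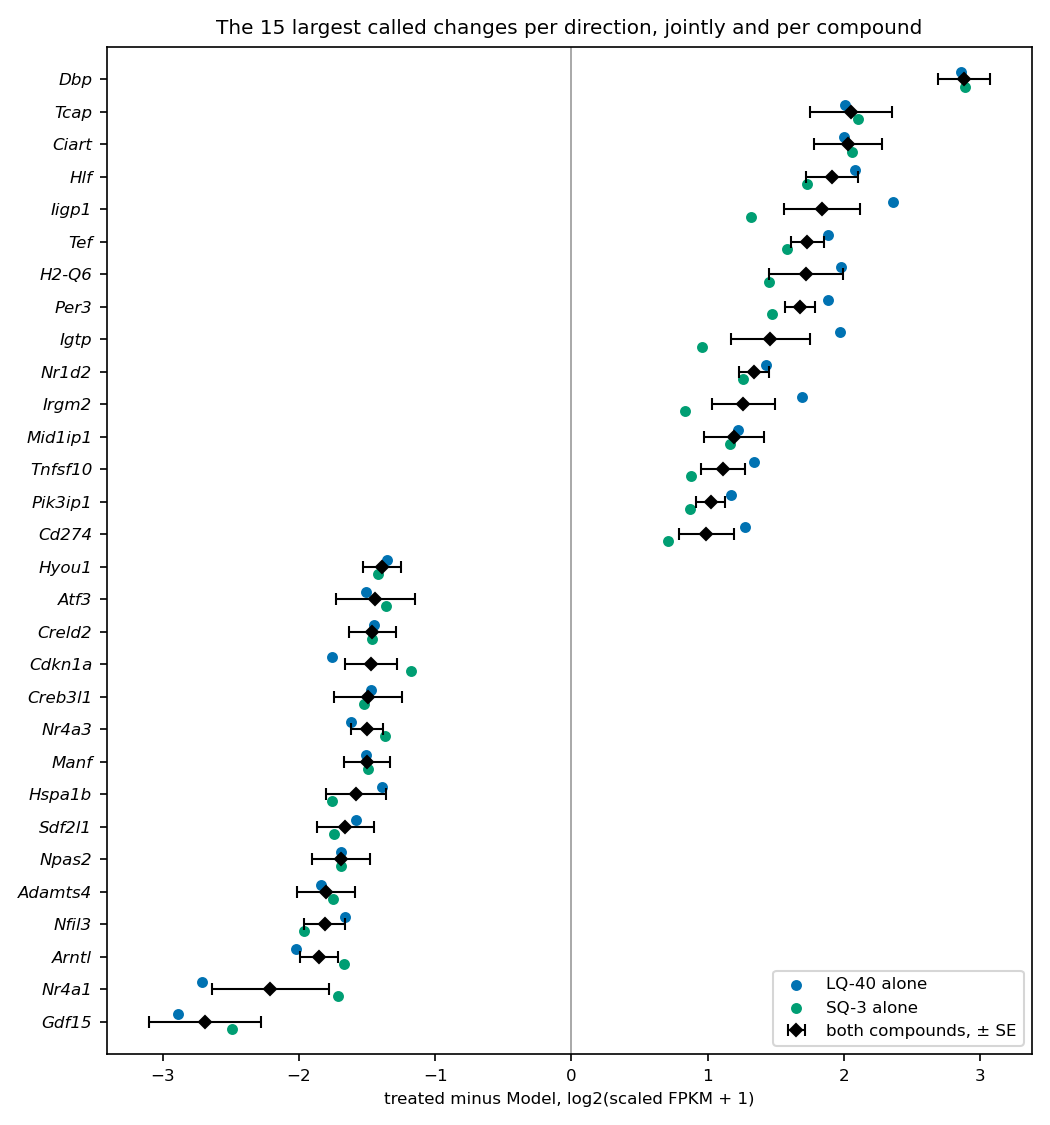
The 15 largest called rises and 15 largest called falls of both compounds against Model under those limits, as differences in log2(scaled FPKM + 1). Diamonds with bars are the joint difference ± SE, and the blue and green points are LQ-40 and SQ-3 alone, which share the Model libraries; Dbp lies farthest to the right at 2.88 and Gdf15 farthest to the left at -2.69.

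Under the same limits, clock genes made up 6 of the 15 largest rises (Dbp, Ciart, Hlf, Tef, Per3 and Nr1d2) and 3 of the 15 largest falls (Arntl, Nfil3 and Npas2). Lack of overlap was a condition for the 15 largest rises and falls, so it is no added support where described for them. Of 15 tested genes of the clock loop 6 rose (Nr1d2, Bhlhe41, Cry2, Per2, Ciart and Per3) and 3 fell (Arntl, Npas2 and Clock), with a list median of 0.15. Of 14 tested output genes 3 rose (Dbp, Tef and Hlf) and 2 fell (Nfil3 and Cdkn1a, the last also in the cardiac stress list), with a median of 0.08. Without LQ-40 library 1, 7 loop genes were called, and without LQ-40 library 3, 6 output genes were. The genes that rose are repressors or outputs of the loop, and Arntl, Clock and Npas2 encode its activators. The clock is circadian, and the labels give no time of collection. The part of collection time in the clock gene values was therefore not tested and cannot be told apart from treatment.

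Known clock elements near the start sites of 2 of these genes are shown because the E-box is the site that BMAL1 and CLOCK bind and the D-box is the site that Dbp, Tef, Hlf and the repressor Nfil3 bind. The sequences are from RefSeq for GRCm38.p6, 5′ to 3′ on the strand of the gene, with the motif in capitals. The Ciart stretch lies at chr3:95882255-95882356 on the minus strand and its 3 E-boxes begin 116, 58 and 44 bases before the start site. The Per3 stretch lies at chr4:151044804-151044882 on the minus strand and its D-boxes begin 205 and 158 bases before the start site.
Ciart: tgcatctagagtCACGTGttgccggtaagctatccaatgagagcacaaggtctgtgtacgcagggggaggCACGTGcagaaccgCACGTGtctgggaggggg
Per3: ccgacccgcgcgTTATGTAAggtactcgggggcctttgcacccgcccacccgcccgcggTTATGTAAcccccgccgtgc
Among 32851 RefSeq promoter windows (250 bases before to 50 after a start site, both strands searched), 7.15% held the E-box CACGTG and 1.66% held a D-box, TTATGTAA or TTATGCAA. Of the 9 called loop genes, 8 had a window: 2 held an E-box (Bhlhe41 and Ciart) and 1 a D-box (Per3). Of the 5 called output genes, all had a window and 1 held an E-box (Tef). The E-box was not particular to the clock lists. Of called genes with a window, it was in 1 of 10 for endoplasmic reticulum folding and 1 of 3 for cytosolic heat shock. It was also in 2 of 7 immediate early genes. Here and for the stress element below, a gene counted if any of its windows held the motif, whereas the shares are per window. A match describes the letters in the window and says nothing of binding in these hearts.

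Dbp (chr7:45705088-45710203, plus strand, mm10), an output transcription factor, read 3.77, 6.1 and 2.54 in the Model libraries, 32.8, 40.9 and 31.7 with LQ-40, and 39.6, 32.3 and 35.5 with SQ-3. Every treated library was thus far above every Model library, and the treated range lay beside the Sham libraries at 36.1, 41.5 and 43. The joint log2 difference was 2.88 (SE 0.19, 7.35-fold in scaled FPKM + 1, limma adjusted p = 6.06e-05), and against Sham it was -0.18 (adjusted p = 0.504). Dbp shares bases with Sphk2 on the other strand, so how their reads were divided is uncertain.

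Its relatives Tef and Hlf bind the same element. Tef (chr15:81802421-81826863, plus) read 6.92, 8.05 and 6.74 in Model, 30.4, 33.2 and 24.5 with LQ-40, and 25.9, 24.8 and 20.5 with SQ-3, a joint difference of 1.73 (SE 0.12, adjusted p = 9.5e-05). Hlf (chr11:90336536-90390895, minus) read 0.705, 1.93 and 0.78 in Model, 9.3, 8.66 and 5.81 with LQ-40, and 6.95, 4.69 and 6.22 with SQ-3, a joint difference of 1.91 (SE 0.19, adjusted p = 0.00104). Neither gene had a treated library within the Model range, which was a condition for being among the largest rises.

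The period gene Per3 and the repressors Nr1d2 and Ciart rose likewise. Per3 (chr4:151003652-151044665, minus) read 0.986, 1.32 and 0.732 in Model, 5.97, 7.12 and 6.09 with LQ-40, and 4.74, 4.79 and 4.12 with SQ-3. Its joint difference was 1.68 (SE 0.11, adjusted p = 6.06e-05), with both compounds clear of Model and LQ-40 above SQ-3 in each library. Per3 shares bases with Camta1, and Clock (below) with the pseudogene Ube2n-ps1, each on the same strand, so the division of their reads is uncertain. Nr1d2, which encodes REV-ERB beta, averaged 32.8 ± 2.89 (SD, n = 6) in treated and 12.3 ± 1.67 (SD, n = 3) in Model hearts, a difference of 1.34 (SE 0.11, adjusted p = 0.000201). Ciart, a repressor of BMAL1 and CLOCK whose E-boxes are shown above, averaged 5.2 ± 1.29 and 0.535 ± 0.473, a difference of 2.03 (SE 0.25, adjusted p = 0.00317).

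Per2 rose with less separation. It read 1.04, 2.66 and 1.97 in Model, 8.74, 9.99 and 5.93 with LQ-40, and 3.89, 4.43 and 2.31 with SQ-3, a joint difference of 1.17 (SE 0.21, adjusted p = 0.0283). SQ-3 library 3 lay inside the Model range, and the call was lost without Model library 1 (adjusted p = 0.128), Model library 3 (0.127), LQ-40 library 1 (0.0514), LQ-40 library 2 (0.0593) or SQ-3 library 1 (0.0737).

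The activators moved the other way. Arntl (chr7:113207465-113314126, plus) read 4.69, 3.42 and 5.75 in Model, 0.287, 0.368 and 0.43 with LQ-40, and 0.833, 0.584 and 0.807 with SQ-3. All treated libraries were far below all Model libraries, and the joint difference was -1.85 (SE 0.14, adjusted p = 0.000129). Npas2, a partner of BMAL1 that can stand in for CLOCK, averaged 0.314 ± 0.148 in treated and 3.38 ± 1.45 in Model hearts (difference -1.69, SE 0.21, adjusted p = 0.00327), and Clock averaged 4.07 ± 0.458 and 7.2 ± 0.0597 (difference -0.70, SE 0.08, adjusted p = 0.00171). Nfil3, a repressor that competes with Dbp for the D-box, read 12.9, 16.7 and 18.8 in Model, 5.07, 3.48 and 4.63 with LQ-40, and 2.85, 3.1 and 4.2 with SQ-3. Its groups did not overlap, and the difference was -1.81 (SE 0.15, adjusted p = 0.000237).

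Not every clock gene passed the test. Nr1d1, which encodes REV-ERB alpha, differed by 0.40 (adjusted p = 0.374), and it shares bases with Thra on the other strand, so its level is uncertain. The repressor Cry1 differed by 0.15 (adjusted p = 0.559), the output protease Usp2 by 0.88 (0.105, and 0.0157 without LQ-40 library 3) and the cell cycle kinase Wee1 by 0.59 (0.136). Against Sham, Arntl differed by 0.32 (adjusted p = 0.115), Nfil3 by -0.23 (0.281), Per3 by -0.04 (0.835) and Clock by 0.24 (0.0468). Among all genes tested, 1653 were called higher (12.7%) and 1047 called lower (8.05%) in treated than in Sham hearts.

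**Figure D2:**
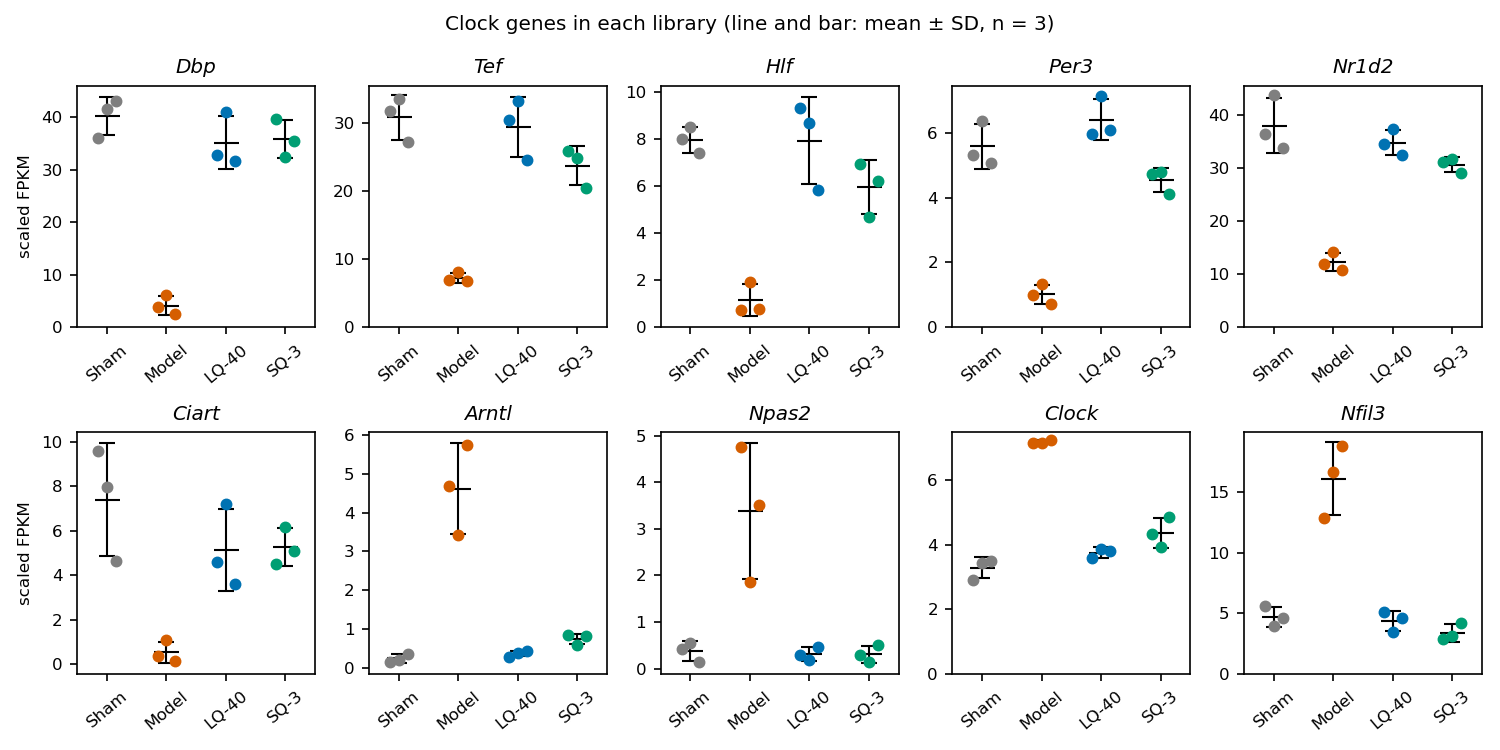
Scaled FPKM of 10 clock genes in each of the 12 heart libraries, points by group with the group mean ± SD (n = 3 per group). Dbp, Tef, Hlf, Per3, Nr1d2 and Ciart are high in both compound groups and low in Model. Arntl, Npas2, Clock and Nfil3 are the reverse. Treated and Model points do not overlap, a condition for being among the largest changes, as all genes shown but Clock are.

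Of the gene lists described, the folding machinery of the endoplasmic reticulum had the most falls. Of its 25 tested genes 12 fell and 0 rose: Manf, Creld2, Hyou1, Hspa5, Xbp1, Sdf2l1, Pdia4, Dnajc3, Calr, Syvn1, Edem1 and Dnajb11. For this and every other list, 0.892% of all genes were called lower and 0.292% higher. The lists were chosen with earlier results of these data known, so a share above that of all genes is not independent support. The list median was -0.67 against -0.000 over all genes, and 23 of 25 members were below 0. For 20 members all 6 treated libraries were below all 3 Model libraries, where 6.43% of all genes did so. The median was -0.67 for LQ-40 and -0.67 for SQ-3, each against the same Model libraries. The summed level of the list was 1238 to 1353 in Model, 693 to 889 with LQ-40, 700.3 to 868 with SQ-3 and 768 to 851 in Sham. Against Sham 1 member was called higher and 2 were called lower, with 17 above 0 and 8 below. The count of 12 fell to 7 without Model library 2 or without Model library 3, and was 14 without LQ-40 library 3.

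The endoplasmic reticulum stress element, which ATF6 and its cofactor bind, is shown for 3 of the fallers because the element is the shared cis-acting site of such chaperones. It was searched as CCAAT and CCACG with 9 bases between, on both strands. The sequences are 5′ to 3′ on the strand of the element, with both of its parts in capitals, from RefSeq for GRCm38.p6. They lie at chr2:34772020-34772048 (Hspa5), chr15:88819515-88819543 (Creld2, element on the strand opposite to the gene) and chr14:118937822-118937850 (Dnajc3).
Hspa5: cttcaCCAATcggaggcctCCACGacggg
Creld2: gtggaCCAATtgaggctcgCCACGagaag
Dnajc3: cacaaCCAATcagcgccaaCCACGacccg
Of the 32851 windows, 39 held the element (0.119%). Of the 12 genes that fell 10 had a window, and 5 of those held it (Hspa5, Calr, Dnajc3, Creld2 and Syvn1). Dnajc3, a co-chaperone that restrains the stress kinase PERK, averaged 18.8 in treated and 35.2 in Model hearts (difference -0.89, SE 0.13, adjusted p = 0.00716), and is shown because its window holds the element.

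Hspa5 (chr2:34771970-34777547, plus) encodes BiP, the main chaperone of the compartment. It read 237, 233 and 223 in Model, 108, 89.8 and 87.5 with LQ-40, and 89.5, 103 and 98.5 with SQ-3. The treated libraries lay within a narrow band far below Model, with a joint difference of -1.26 (SE 0.11, adjusted p = 0.000337). They also lay below the Sham libraries (131, 135 and 116), by -0.40 (adjusted p = 0.0298).

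Other members of the list fell by more, from lower levels. Hyou1 (chr9:44379490-44392369, plus), an exchange factor for BiP, read 22.2, 19 and 16.9 in Model, 6.46, 6.41 and 8.11 with LQ-40, and 7.33, 5.67 and 6.76 with SQ-3 (difference -1.39, SE 0.14, adjusted p = 0.000933). Creld2 (chr15:88819646-88826683, plus), a secreted stress protein, read 41.8, 36 and 31.8 in Model, 9.55, 13.7 and 15.4 with LQ-40, and 11.2, 15.7 and 11.2 with SQ-3 (difference -1.46, SE 0.17, adjusted p = 0.00216). Neither had a treated library near the Model range, and the Sham means were 6.84 ± 1.39 and 10.4 ± 1.59 (SD, n = 3).

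Manf, a secreted protein of stressed endoplasmic reticulum, averaged 12 ± 3.13 in treated and 35 ± 2.03 in Model hearts (difference -1.50, SE 0.17, adjusted p = 0.00216). Its annotated span crosses Rbm15b and Dcaf1, so its read count is uncertain. Sdf2l1, a partner of BiP, averaged 7.55 ± 1.92 and 26 ± 5.88 (difference -1.66, SE 0.21, adjusted p = 0.00452). Xbp1 (chr11:5520659-5525893, plus), whose spliced form drives these genes, read 43.2, 44.4 and 44.3 in Model, 20.9, 27.4 and 27.8 with LQ-40, and 22.4, 23.6 and 20.4 with SQ-3. Its groups were far apart (difference -0.87, SE 0.10, adjusted p = 0.00271), and the deposited gene totals do not separate the spliced form. Creb3l1, a membrane-bound factor of collagen-secreting cells, averaged 5.15 ± 1.89 and 15.7 ± 1.64 (difference -1.49, SE 0.25, adjusted p = 0.0217), a call lost without Model library 1 (0.112), Model library 2 (0.0799) or Model library 3 (0.0861).

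The integrated stress response and cytosolic chaperones showed fewer changes. Of 16 tested genes of the stress response 3 fell (Gdf15, Atf3 and Atf5) and 0 rose, with a median of -0.49. LQ-40 alone gave 1 call and SQ-3 alone 0. Gdf15 (chr8:70629393-70632456, minus), a circulating stress cytokine, read 28.4, 11.7 and 22.9 in Model, 0.5, 2.01 and 3.89 with LQ-40, and 2.4, 5.73 and 1.19 with SQ-3. No treated library reached the Model range. The difference was -2.69 (SE 0.41, adjusted p = 0.0119), which missed the threshold without Model library 1 (0.0668) or Model library 3 (0.0825). Atf3 and Atf5, both transcription factors of this response, passed narrowly (adjusted p = 0.0451 and 0.0421). Each lost its call when any treated or Model library was left out except LQ-40 library 3 or SQ-3 library 2, and without Sham libraries 1 or 3 (Atf3) or Sham library 2 (Atf5). Atf5 shares bases with Nup62 on the other strand and is uncertain. The list had no call without Model library 1 or without Model library 3, and 1 without LQ-40 library 1. For Gdf15 the Sham libraries were at 0.252, 0.16 and 0.212, below treated by 1.41 (adjusted p = 0.0363).

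Of 20 tested cytosolic heat shock genes 4 fell and 0 rose, with a median of -0.30; 2 were called without Model library 2 or without Model library 3, and 5 without LQ-40 library 1. Hsph1 (chr5:149614287-149636376, minus), an exchange factor for HSP70, read 12.8, 13.1 and 14.5 in Model, 5.94, 6.03 and 5.86 with LQ-40, and 6.08, 5.42 and 5.29 with SQ-3. The 6 treated values lay within 1 unit of each other, with a difference of -1.09 (SE 0.11, adjusted p = 0.00134). They were also below Sham, at 8.23, 11.7 and 7.64, by -0.57 (adjusted p = 0.0095). Hsp90aa1, the inducible HSP90, averaged 48.2 ± 8.38 in treated and 93.6 ± 5.4 in Model hearts (difference -0.96, SE 0.15, adjusted p = 0.0141), and lost its call without Model library 1 (0.0586), Model library 2 (0.0555) or Model library 3 (0.0994). Hspa1b averaged 1.34 ± 0.51 and 6.19 ± 2.9 (difference -1.58, adjusted p = 0.00716), but it has a near-identical copy in Hspa1a, so its value is uncertain.

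Immediate early genes, the first transcripts to answer stimulation, also fell. Of 24 tested 8 fell (Nr4a1, Nr4a3, Nr4a2, Egr2, Fosl2, Klf4, Ier2 and Atf3, the last also in the stress list) and 0 rose. The median was -0.85 and 22 members were below 0. All treated libraries lay below all Model libraries for 15 members, where 6.43% of all genes did so. The median was -0.94 with LQ-40 and -0.76 with SQ-3. The count was 5 without LQ-40 library 1 and 9 without LQ-40 library 3. Without Model library 3 the count was 2, and Klf4 (adjusted p = 0.0149) and Egr2 (0.0269) were among the calls lost (0.0632 and 0.173); Egr2 was also lost without Model library 1 (0.122), LQ-40 library 2 (0.0514), SQ-3 library 1 (0.0586) or SQ-3 library 3 (0.0706). Nr4a3 (chr4:48045153-48086447, plus), an orphan nuclear receptor, read 4.32, 6.1 and 4.96 in Model, 0.774, 1.29 and 0.893 with LQ-40, and 1.31, 1.53 and 1.22 with SQ-3. The groups lay well apart (difference -1.50, SE 0.12, adjusted p = 0.000152), and treated hearts were above Sham by 0.45 (adjusted p = 0.0248).

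Its relative Nr4a1 had a larger fall and a wider spread. It read 21, 51.9 and 49 in Model, 2.49, 6.35 and 7.03 with LQ-40, and 10.2, 13.4 and 9.32 with SQ-3 (difference -2.21, SE 0.43, adjusted p = 0.0376). The groups did not overlap, but the call was lost without Model library 2 (0.13), Model library 3 (0.205), LQ-40 library 1 (0.0523), LQ-40 library 2 (0.0598), SQ-3 library 1 (0.0852) or SQ-3 library 3 (0.0936). Fosl2, a subunit of the AP-1 factor, averaged 6.35 ± 1.53 in treated and 14.7 ± 2.03 in Model hearts (difference -1.11, SE 0.15, adjusted p = 0.00614), and was above Sham by 0.66 (adjusted p = 0.016).

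Of 18 tested cardiac stress genes 4 fell (Rcan1, Xirp1, Cdkn1a and Gdf15) and 0 rose, with a median of -0.55, and 1 was called without Model library 3. LQ-40 alone gave 4 calls and SQ-3 alone 0, with medians of -0.69 and -0.41. Cdkn1a is also counted in the clock output list and Gdf15 in the stress response list. Rcan1 (chr16:92391953-92470867, minus), a feedback inhibitor of calcineurin, read 104, 73.7 and 112 in Model, 25.3, 35.4 and 43 with LQ-40, and 46.8, 45.8 and 37.8 with SQ-3. All treated libraries were below all Model libraries (difference -1.29, SE 0.18, adjusted p = 0.00716; 0.0604 without Model library 3). Cdkn1a, the cell cycle inhibitor p21, averaged 12.1 ± 3.64 and 34.8 ± 9.84 (difference -1.47, SE 0.19, adjusted p = 0.00452). Xirp1, which overlaps Cx3cr1 and is uncertain, differed by -0.79 (adjusted p = 0.0325) and lost its call without Model library 1 (0.161), Model library 3 (0.177), any SQ-3 library (0.0505 to 0.085), Sham library 2 (0.0551) or Sham library 3 (0.0523). The natriuretic peptides Nppa and Nppb, the classical markers of a loaded heart, gave differences of -1.03 (SE 0.68, adjusted p = 0.463) and -1.37 (SE 0.54, adjusted p = 0.254). Nppb read 662, 612 and 833 in Model, 83.3, 267 and 382 with LQ-40, and 188, 969 and 247 with SQ-3, so 5 of 6 treated libraries were below Model and SQ-3 library 2 was above it.

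**Figure D3:**
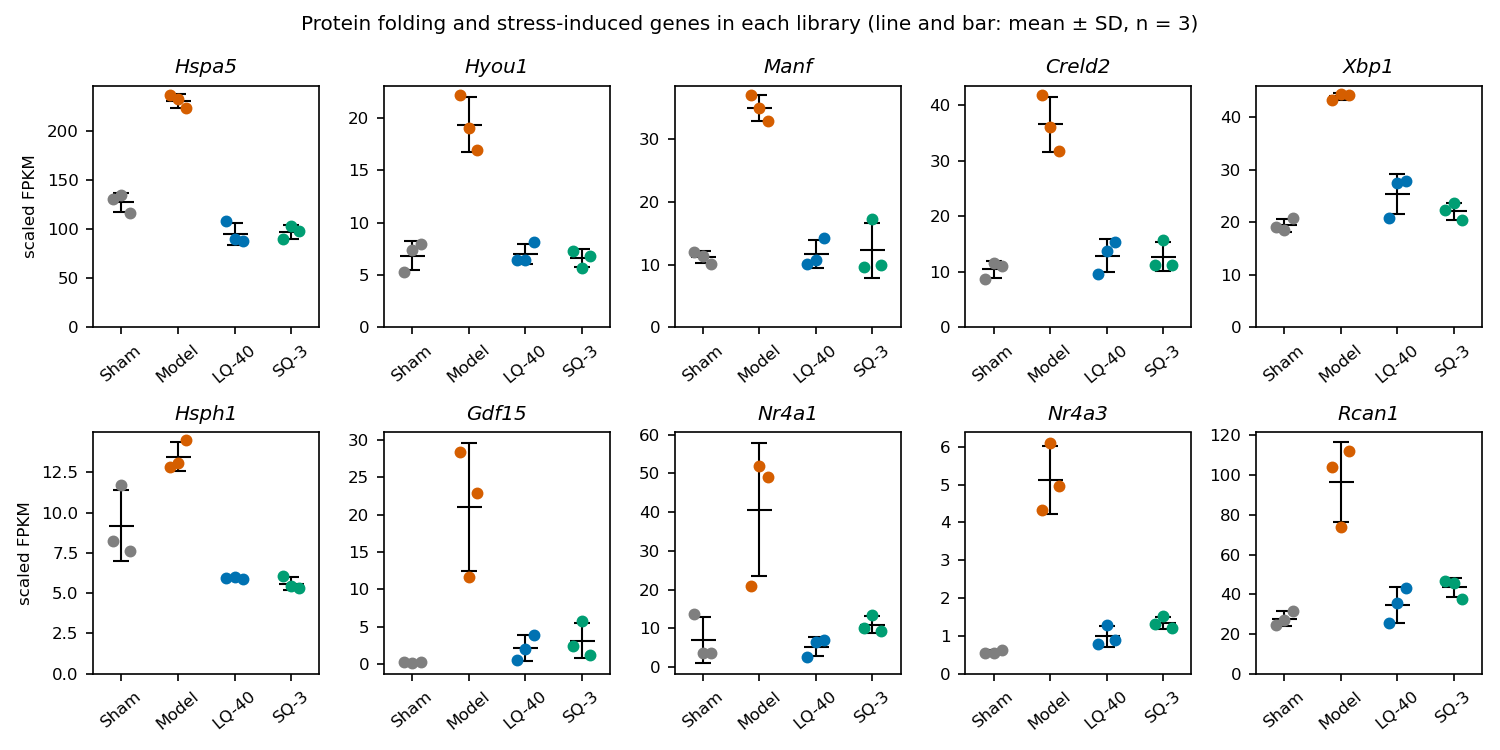
Scaled FPKM of 10 stress and immediate early genes in each of the 12 heart libraries, points by group with the group mean ± SD (n = 3 per group). In each gene all 6 treated points lie below the 3 Model points; Hspa5 and Hsph1 also lie below Sham.

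Few of the matrix genes that the study's question concerns passed the test. Of 22 tested collagen genes 0 were called by limma; 12 had an unadjusted p under 0.05, where 16.2% of all genes did. limma-voom on the recovered reads also called 0, and library quality weights called 10. All 22 were below 0, with a median of -0.75 and a range of -1.23 to -0.35. Without overlap, 10 lay below Model, where 6.43% of all genes did. The median differed among libraries: relative to the Model mean it was -1.64, -0.46 and -0.26 in the 3 LQ-40 libraries and -0.82, -0.44 and -0.92 in the 3 SQ-3 libraries. Without LQ-40 library 3, 2 collagens were called. Against Sham all 22 collagens were above 0 and 17 were called higher, where 12.7% of all genes were. In whole-heart RNA, fewer cells of a type and less RNA per cell cannot be told apart.

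Col1a1 (chr11:94936224-94953042, plus), the chief fibrillar collagen chain, read 1020, 785 and 826 in Model, 184, 574 and 925 with LQ-40, and 416, 287 and 362 with SQ-3. LQ-40 library 3 lay inside the Model range and the other 5 below it, and the difference was -1.11 (SE 0.49, adjusted p = 0.296). Col3a1, its partner in scar, read 1147, 1136 and 1074 in Model, 327, 721 and 1419 with LQ-40, and 604, 563 and 519.9 with SQ-3 (difference -0.84, SE 0.40, adjusted p = 0.329). The highest of all 9 libraries was thus a treated one. Fn1 (fibronectin) differed by -0.58 (adjusted p = 0.422), Postn (periostin) by -0.50 (0.633), Acta2 (smooth muscle actin) by -0.53 (0.11) and Tgfb1 by -0.40 (0.229). Acta2 passed the threshold without SQ-3 library 2 (0.0285).

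Of 33 other matrix genes 1 fell (Fbn2) and 0 rose; the median was -0.63 and 32 were below 0. Relative to the Model mean the list median was -1.46, -0.30 and 0.05 in the LQ-40 libraries and -0.76, -0.20 and -0.79 in the SQ-3 libraries. Fbn2, fibrillin 2 of elastic microfibrils, averaged 0.968 ± 0.272 in treated and 3.66 ± 0.377 in Model hearts (difference -1.25, SE 0.13, adjusted p = 0.00134), and treated hearts were above Sham by 0.67 (adjusted p = 0.0091). Elastin (Eln) read 195, 181 and 183 in Model, 57.7, 101 and 85.3 with LQ-40, and 63.1, 147 and 77.9 with SQ-3. Its groups did not overlap, but the difference of -1.13 (SE 0.26) missed the threshold (adjusted p = 0.0706) and passed it without SQ-3 library 2 (0.017).

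Of 31 matrix enzymes and inhibitors 1 fell (Adamts4) and 0 rose, with a median of -0.46; 2 were called without LQ-40 library 1 and 6 without LQ-40 library 3. Adamts4 is a protease of proteoglycans, and its read count is uncertain. Of 21 tested genes of the TGF-beta pathway limma called 0 and 9 had an unadjusted p under 0.05 (16.2% of all genes did), with a median of -0.30. Without LQ-40 library 1 there was 1 call, Tgfb3 (adjusted p = 0.0335, against 0.12 with all libraries), and with library quality weights there were 7.

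Fibroblast markers lay mostly below Model, with no call by limma and with list medians that differed among libraries. Of 15 tested activated fibroblast genes limma called 0 and 6 had an unadjusted p under 0.05, with a median of -0.77 and 14 below 0. The 16 genes of this list with deposited values summed to 1002 to 1398 in Model, 302 to 1244 with LQ-40, 589 to 1289 with SQ-3 and 246 to 252 in Sham. Relative to the Model mean the list median was -2.32, -0.31 and 0.27 in the LQ-40 libraries and -1.03, -0.07 and -0.90 in the SQ-3 libraries. Of 17 resident fibroblast genes 0 were called and 4 had such a p, where 16.2% of all genes did, with a median of -0.19 and 13 below 0. Their medians were -0.63, -0.13 and 0.13 with LQ-40 and -0.33, 0.12 and -0.25 with SQ-3. limma-voom called 0 in both lists, and library quality weights called 4 activated and 3 resident fibroblast genes. In the lists below without a call, limma-voom also called 0. The part of the fibroblast markers in the matrix values was not tested.

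**Figure D4:**
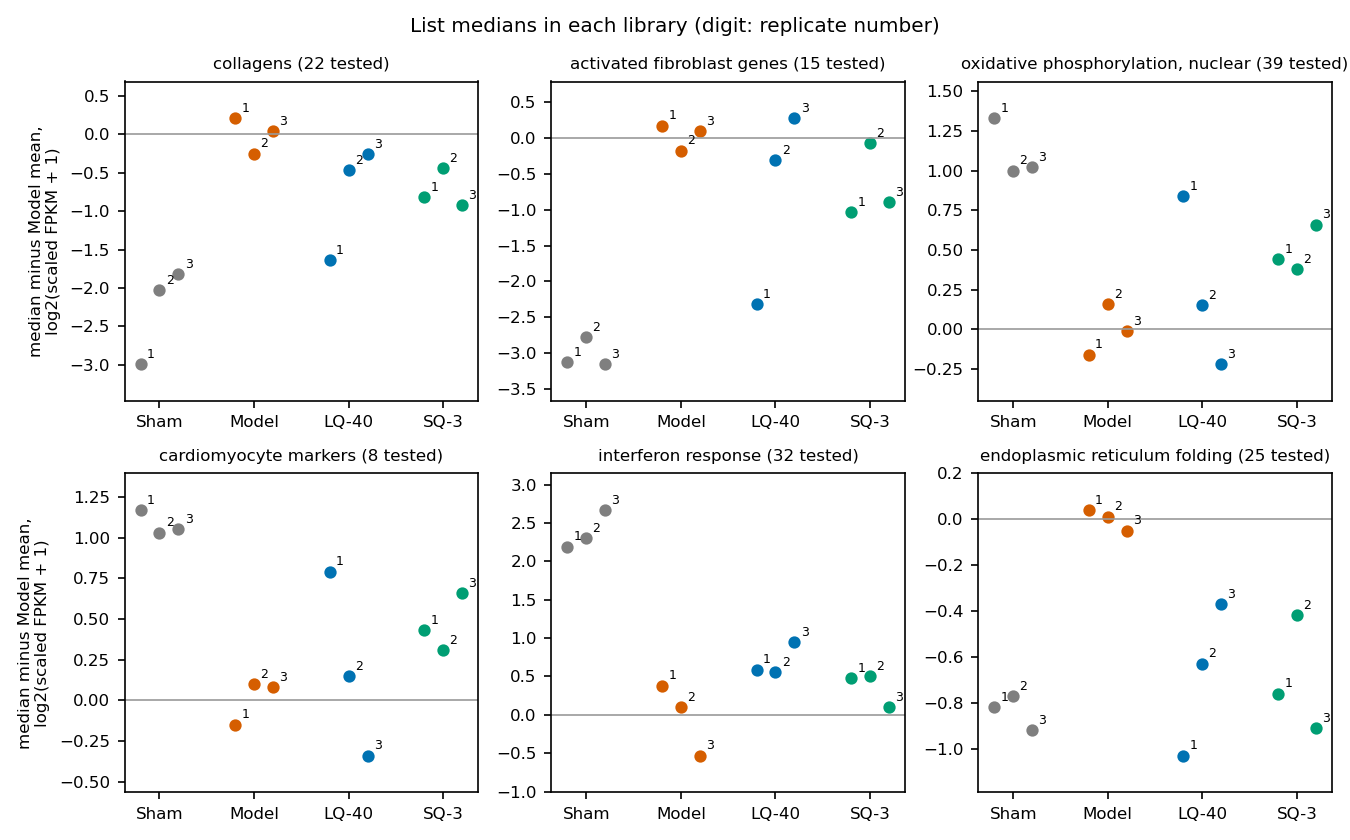
Median of a gene list in each library minus the Model mean, on the log2(scaled FPKM + 1) scale, for 6 lists; the digits are the replicate numbers. The endoplasmic reticulum folding list is low in all 6 treated libraries, whereas for collagens LQ-40 library 1 (-1.64) and LQ-40 library 3 (-0.26) lie far apart, and for nuclear oxidative phosphorylation genes they lie at 0.84 and -0.22.

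Energy genes lay on the other side of Model, with no call. Of 39 tested nuclear genes of oxidative phosphorylation 0 were called and 1 had an unadjusted p under 0.05; library quality weights called 1. All 39 were above 0, with a median of 0.37 and a range of 0.23 to 0.59. Relative to the Model mean the list stood at 0.84, 0.15 and -0.22 in the LQ-40 libraries and 0.44, 0.38 and 0.66 in the SQ-3 libraries. Against Sham all 39 were below 0 and 29 were called lower, where 8.05% of all genes were. Of 30 genes of fatty acid oxidation and uptake 0 were called and 4 had an unadjusted p under 0.05, a share below the 16.2% of all genes, with a median of 0.41; library quality weights called 6. The 13 protein genes of the mitochondrial genome gave 0 calls, 1 unadjusted p under 0.05 and a median of 0.33, beside the mitochondrial share of reads given above.

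Of 22 tested genes of the contractile apparatus 1 rose and 0 fell, with a median of 0.20. Tcap (chr11:98383811-98384953, plus), the titin cap at the Z-disc, read 225, 305 and 161 in Model, 1473, 887 and 557 with LQ-40, and 872, 853 and 1178 with SQ-3. The lowest treated library was above the highest Model library, and the difference was 2.05 (SE 0.30, adjusted p = 0.00894; 0.0744 without Model library 3). Sham libraries, at 2305, 1751 and 1665, were above all treated libraries, a treated minus Sham difference of -1.02 (adjusted p = 0.0379). Myh6 and Myh7, the adult and fetal myosin heavy chains, differed from Model by 0.38 (adjusted p = 0.506) and 0.39 (adjusted p = 0.316). The summed level of the 8 heart muscle markers was 10259 to 12287 in Model, 8633 to 17510 with LQ-40, 13760 to 16686 with SQ-3 and 20755 to 23951 in Sham, with 0 of 8 called and 0 at an unadjusted p under 0.05. Their part in the values of Tcap and of the energy genes was not tested.

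Of 28 genes of glycolysis and hypoxia 2 fell (Vegfa and Pgam1) and 0 rose, with a median of 0.02; 3 were called without LQ-40 library 1 or without LQ-40 library 3. Vegfa (chr17:46016993-46032369, minus), the main growth factor of blood vessels, read 43.4, 48.3 and 45.3 in Model, 25.2, 24.6 and 18.1 with LQ-40, and 27.1, 30.5 and 27.3 with SQ-3. The treated libraries were below both controls, by -0.83 against Model (SE 0.11, adjusted p = 0.0053) and by -0.50 against Sham (adjusted p = 0.0135), where Sham read 36.8, 36.3 and 35. Pgam1, a glycolytic mutase, differed from Model by -0.53 (adjusted p = 0.0429) and lost its call with any single library left out except LQ-40 library 1 or 3 (adjusted p up to 0.223). Of 14 endothelial markers tested 0 were called and 1 had an unadjusted p under 0.05.

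Of 32 tested interferon-response genes 3 rose (Iigp1, Igtp and Gbp3) and 0 fell; all 32 were above 0, with a median of 0.56, 0.78 for LQ-40 and 0.34 for SQ-3. Against Sham all 32 were below 0 and 28 were called lower, where 8.05% of all genes were. The summed level was 1321 to 1849 in Sham, 123 to 243 in Model, 323 to 395 with LQ-40 and 229 to 287 with SQ-3. LQ-40 alone gave 3 calls and SQ-3 alone 0. The joint count was 2 without LQ-40 library 1, and it was 0 when treated and Model libraries were fitted alone with the compounds as 1 group. Iigp1, a GTPase that attacks vacuoles of parasites, read 12.8, 10.6 and 4.45 in Model, 44.5, 55.9 and 44.1 with LQ-40, and 20.1, 21.1 and 28.2 with SQ-3. All treated libraries were above Model and all far below the Sham libraries at 325, 173 and 228; the difference from Model was 1.84 (SE 0.28, adjusted p = 0.0124).

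Gbp3, a guanylate-binding protein, averaged 12.4 ± 5.58 in treated and 5.54 ± 1.91 in Model hearts (difference 0.98, SE 0.20, adjusted p = 0.0404). It lost its call with any single library left out except LQ-40 library 1 or 3 (adjusted p up to 0.161, without Model library 3). Igtp, at 1.46 (adjusted p = 0.0417), overlaps its neighbour Irgm2 and is uncertain, and its call was lost without any library except LQ-40 library 3, Model library 1 or Sham library 2 (adjusted p up to 0.177). Tnfsf10, the death ligand TRAIL, averaged 7.35 ± 1.54 and 2.86 ± 0.684 (difference 1.11, SE 0.16, adjusted p = 0.00716; 0.0521 without Model library 3).

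The fixed lists of immune cell markers gave no calls with all libraries. Ighd, an immunoglobulin gene outside them, was called higher, with means of 1.82 in treated and 0.342 in Model hearts (difference 1.03, limma adjusted p = 0.0462). For macrophages 0 of 23 were called (1 without LQ-40 library 3, 2 with library quality weights) and 3 had an unadjusted p under 0.05, a share below the 16.2% of all genes, with sums of 1213 to 1787 in Model, 1120 to 2531 with LQ-40 and 1026 to 1639 with SQ-3. The 13 T and B cell markers summed to 4.34 to 16 in Model, 8.91 to 28.7 with LQ-40 and 6.58 to 17.9 with SQ-3. Of the 6 tested all were above 0, 2 had such a p and library quality weights called 2. The 10 neutrophil markers summed to 7.75 to 15.4 in Model, 6.78 to 88.8 with LQ-40 and 7.2 to 16.9 with SQ-3. Of the 5 tested all were above 0 and 0 had such a p. Their part in the interferon values was not tested. Among 19 genes of NF-kB and the acute phase 2 fell (Cebpb and Il4ra) and 0 rose, with a median of -0.42, and 4 were called without LQ-40 library 3. Cebpb shares bases with Tmem189 on the other strand and is uncertain. Cebpb (adjusted p = 0.0227) and Il4ra (0.0269) both lost their calls without Model library 2 (0.0892 and 0.0957), Model library 3 (0.15 and 0.137), SQ-3 library 1 (0.0599 and 0.068) or SQ-3 library 3 (0.0602 and 0.0701), and Il4ra also without Model library 1 (0.122) or LQ-40 library 2 (0.0598). Pik3ip1 (chr11:3330401-3342971, plus), an inhibitor of phosphoinositide 3-kinase outside the fixed lists, read 5.59, 4.7 and 5.7 in Model, 14, 15 and 10.9 with LQ-40, and 9.79, 11.7 and 10.3 with SQ-3. Both compounds were clear of Model (difference 1.02, SE 0.11, adjusted p = 0.00216).

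**Figure D5:**
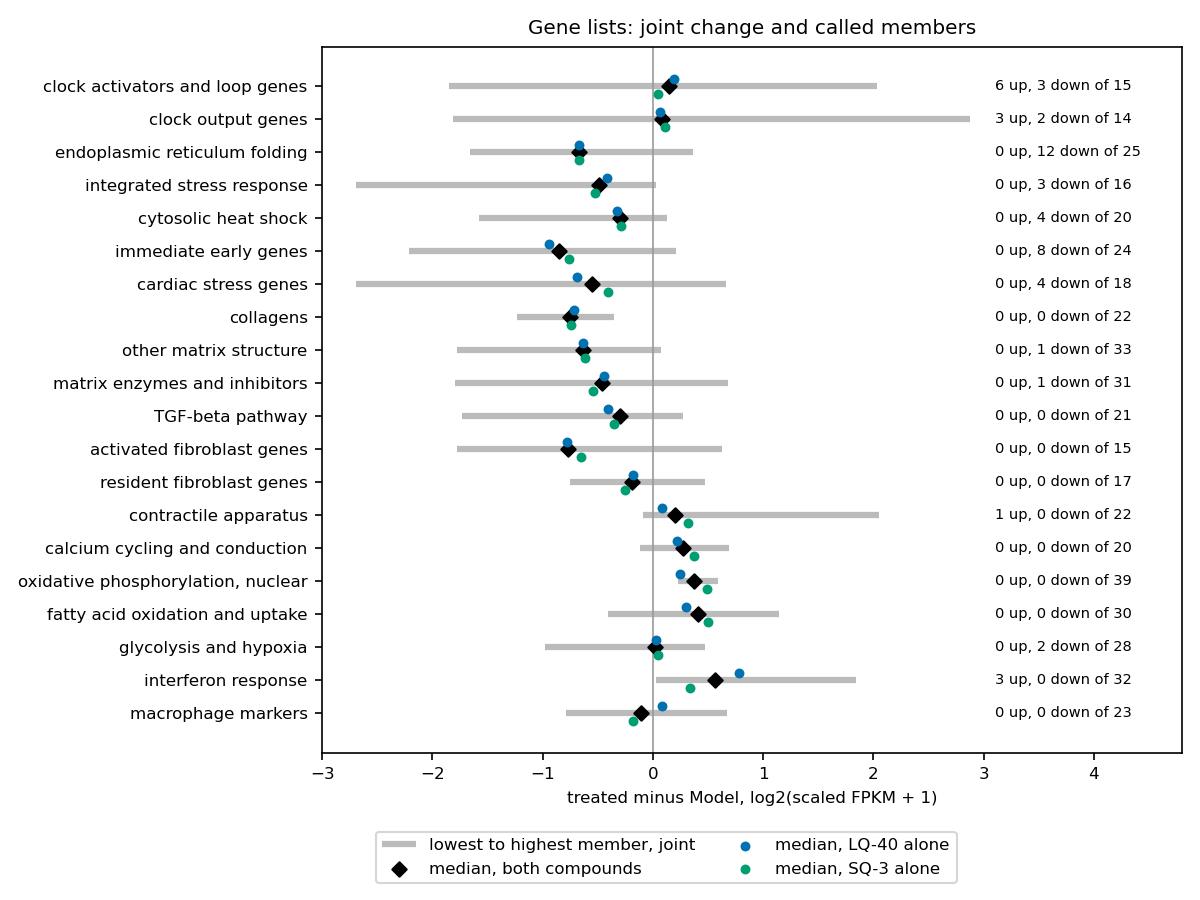
Gene lists by the median joint difference of their tested members from Model, on the log2(scaled FPKM + 1) scale. Lines run from the lowest to the highest member, coloured points are the medians of LQ-40 and SQ-3 alone, and the numbers count members called; immediate early genes have the lowest median shown, -0.85, and interferon-response genes the highest, 0.56.

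The compounds themselves were compared as 1 pair, without Model libraries; no dose or time is given to match them on. Of 13000 genes 0 differed between LQ-40 and SQ-3 by limma (0%), where the smallest adjusted p was 1, and limma-voom also called 0. At an unadjusted p under 0.05 by limma there were 394 genes (3.03%). That count depended on the libraries: it was 1510 without LQ-40 library 1 and 2293 with library quality weights. Among the 154 genes called jointly 23 had such a p (14.9%), and both tests draw on the same estimate of the spread. The median size of the difference between compounds over the 154 was 0.13 on the log2 scale, with a median half-width of 0.33 for its 95% interval, and the largest was 1.24, for Gm12250. A p that misses the threshold does not show that the compounds act alike, and the intervals give the sizes that these libraries leave possible.

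The width of the intervals differed among genes. LQ-40 minus SQ-3 was -0.03 for Dbp (95% interval -0.50 to 0.44), -0.03 for Hspa5 (-0.31 to 0.25), 0.07 for Hyou1 (-0.27 to 0.42) and 0.08 for Hsph1 (-0.22 to 0.37). Wider intervals belonged to Gdf15, at -0.40 (-1.44 to 0.65), Nr4a1 (-2.09 to 0.08) and Tcap, at -0.09 (-0.85 to 0.68). The collagens were at 0.39 for Col1a1 (-0.86 to 1.64) and at 0.31 for Col3a1 (-0.72 to 1.33). A difference of 2-fold, 1 on the log2 scale, lies outside the intervals of Dbp and the 3 chaperone genes, and inside those of Col1a1 and Col3a1 with LQ-40 higher and of Gdf15 and Nr4a1 with SQ-3 higher.

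The smallest unadjusted p-values with LQ-40 higher belonged to Xdh, Gbp3, Tgtp2, Tbl1xr1 and Per2. Xdh, xanthine dehydrogenase of purine breakdown, read 29.5, 30.8 and 21.4 with LQ-40 and 18, 13.2 and 16.8 with SQ-3, a difference of 0.73 (95% interval 0.38 to 1.07). Gbp3 read 13.5, 20.8 and 16.8 against 8.04, 8.08 and 7.24, a difference of 1.02 (0.52 to 1.51). Tgtp2, a further interferon-induced GTPase, read 5.36, 8.25 and 7.21 against 2.28, 2.97 and 2.01, a difference of 1.21 (0.59 to 1.82). In each of these genes the 3 LQ-40 libraries were above the 3 SQ-3 libraries, and each adjusted p was 1. The genes were picked by smallest unadjusted p, so their separation and intervals follow from that choice and are no support for a difference.

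Interferon-linked Iigp1 and the period genes stood apart in the same direction. LQ-40 minus SQ-3 was 1.04 for Iigp1 (0.32 to 1.75), 1.03 for Per2 (0.48 to 1.57) and 0.41 for Per3 (0.14 to 0.68). With SQ-3 higher, the smallest unadjusted p-values belonged to Gm17112, D630003M21Rik, Leng8, Fam58b and Gm6542, with differences of -0.81, -0.45, -0.33, -0.44 and -0.60; Gm17112 and Gm6542 overlap other expressed genes and are uncertain. Myh7, the fetal myosin, was at -0.64 (-1.10 to -0.17) and Cdkn1a at -0.58 (-1.06 to -0.10). Per2 and the genes listed with SQ-3 higher were picked by their p in the same way. None of the genes in this paragraph passed the test over all genes.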

How the data were processed

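Messenger RNA of 12 mouse heart libraries was read from 1 table. The 2 rat libraries of the series were not analysed here. The authors deposited FPKM for 54532 genes, with gene lengths. Tools in the submitters' processing notes are featureCounts 1.5.0-p3, HISAT2 2.0.5 and fastp, without roles, and the build is mm10; annotation release and strand setting: not given in the sources used here. The labels' protocols name trizol, poly-T beads and both a NEB and a dUTP strand-specific library. FPKM times gene length gave whole multiples for 100.0% of values (tolerance 0.02 of a read). The library size in the deposited values came to 0.828 to 1.164 of the reads recovered, and 1 read per kilobase was worth 0.0566 to 0.0805 FPKM, which bounds the precision of low genes.

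Each library was scaled by median of ratios, using the 10422 genes that reached 1 FPKM in all 12 libraries. The 13000 genes that reached 1 FPKM in 3 or more libraries were tested as log2(value + 1) with limma 3.58.1 in R 4.3.3 (4 groups, eBayes with trend, 10.9 degrees of freedom, Benjamini-Hochberg at 0.05). The joint contrast was the mean of LQ-40 and SQ-3 minus Model. Scripts were tested on simulated data. Permutation tests used scipy 1.17.1. Members and gene lists were chosen with earlier results of these data known. Named genes were the 15 largest called protein-coding changes per direction with a mean of at least 2 and no overlap, up to 5 called members and up to 2 members not called of each list, 10 fixed genes, and 5 genes per direction between compounds. Promoters and motifs are from RefSeq. Alternatives covered scaling, pseudocount, filters, tools, grouping, a replicate block and each library left out.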

Additional observations from a re-analysis of the deposited data

Results flagged for a closer look

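Among the 146 named genes, 5 had 1 of the 6 treated libraries far from the other 5, by a gap of over 0.625 of the range on the log2 scale. Chance alone gives about 1 in 20 genes. LQ-40 library 3 stood high for Fosl2, an AP-1 subunit, at 9.37 scaled FPKM against 5.29 to 6.44 in the others, for Col18a1, a basement membrane collagen, at 14.4 against 7.97 to 9.77, and for Osmr, the oncostatin M receptor, at 8.08 against 4.05 to 4.76. The same library stood low for Xirp1, an actin-binding protein of the intercalated disc, at 18.7 against 26.9 to 30.5. LQ-40 library 1 stood low for Tgfb3, a TGF-beta ligand, at 13.1 against 28.8 to 41.5.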

How the results depend on the processing

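The joint count of 154 genes was 140 to 190 with quantile normalization, FPKM as deposited, 0.1 as the pseudocount, a mean of at least 5 FPKM, limma-voom, robust eBayes or 1 treated group fitted with all 12 libraries. It was 100 with no filter, 84 with only the groups compared, 96 with 1 treated group and Model alone, and 1659 (724 higher, 935 lower) with library quality weights, whose estimation stopped before its tolerance was reached. Leaving out 1 library gave 39 (without Model library 3) to 320 (without LQ-40 library 3; 112 higher, 208 lower). Against Sham the count of 2700 was 4226 with weights, 1328 with no filter, 1462 with only the groups compared, and 758 (without Sham library 1) to 4563 (without LQ-40 library 1) with 1 library left out. LQ-40 against SQ-3 gave 2 with no filter and 0 to 1 with 1 library left out. LQ-40 against Model (87) gave 828 with weights, 48 with no filter, 14 with only the groups compared and 31 to 155 with 1 library left out. SQ-3 against Model (45) gave 1857 with weights and 12 to 142 with 1 library left out. No named gene that was called in the main fit or in the alternative changed direction. Genes called in neither, and the counts of genes and list members, were not checked for direction. With weights 27 of 41 list counts moved by over 1.5 times or from 0, and without Model library 3 it was 10. The difference in mitochondrial share missed the threshold in every alternative run, with p of 0.107 to 0.607. The cause of these shifts was not tested.

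Replicate numbers in the titles did not pair the libraries: deviations of same-numbered libraries correlated by -0.27 to 0.22, and not every library correlated best with its own number. With the replicate number as a block the counts were 83 jointly (20 higher, 63 lower), 29 for SQ-3, 59 for LQ-40, 0 between compounds and 1994 against Sham.

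Groups of 3 libraries limit every comparison between compounds. Calls among low genes rest on few reads, and changes there are understated.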
